A study of Homo sapiens with 4 samples.

Results

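The protocadherins are the largest subgroup of the cadherin superfamily, single-pass membrane proteins that carry extracellular cadherin repeats and bind like molecules on a neighbouring cell. The genes described here are the protein-coding genes whose symbols start with PCDH, 66 of the 60617 genes in the deposited table, with symbols matched from Ensembl identifiers. They comprise 15 alpha, 16 beta and 22 gamma genes, which stand in 3 adjacent clusters on chromosome 5, and 13 non-clustered genes. Of the non-clustered genes, PCDH1 and PCDH12 also lie on chromosome 5, and the others on other chromosomes. RNA-seq was done in A673, an established human Ewing sarcoma cell line that carries the EWSR1-FLI1 fusion. The tested cells received 1 µM CBL0137 for 24 h (2 libraries), and the control cells received DMSO, the solvent, over the same time (2 libraries). CBL0137, a small molecule of the curaxin group, inserts into DNA and leaves the histone chaperone FACT bound to chromatin, and the series asks what targeting FACT does to Ewing sarcoma cells. All 4 libraries come from a single cell line, and the labels do not say whether replicates were separate cultures, so every p-value here rests on library-to-library spread that may be technical.

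In the alpha and gamma clusters each gene has its own promoter and its own large first exon, which encodes the extracellular repeats, the membrane span and the start of the tail, and this exon is spliced to constant exons that all genes of the cluster share. Beta genes are single-exon genes with no constant region. In neurons each cell uses a few of these promoters, apparently by chance, except that the C-type genes at the end of the alpha and gamma clusters are used more evenly, and the resulting combination gives the cell an identity by which its branches recognise and avoid one another. Promoter use is known to depend on CTCF and cohesin, which fold a distal enhancer onto the promoter, and on DNA methylation. The non-clustered genes, most of them of the delta group, have separate loci and act in cell adhesion and movement, several through the WAVE actin complex.

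Reads assigned to genes numbered 20483714 and 22817617 in CBL0137 replicates 1 and 2, and 23373554 and 23031963 in DMSO replicates 1 and 2. All 10 Ewing sarcoma markers, such as CD99, passed the count filter, and their summed level was 5907 and 5899 CPM (a gene's reads scaled to the library total) in CBL0137 cells, against 6141 and 6115 CPM in DMSO cells, with 1 called (GLI1, higher) and with 3 higher and 3 lower at an adjusted p under 0.05 and no fold limit. The summed level of 10 epithelial markers was 470 and 499 CPM in CBL0137 cells, against 299 and 297 CPM in DMSO cells, with GRHL2 at 0 reads in every library. Of 5 tested genes, edgeR called 4 higher and DESeq2 called 2. Of those called by edgeR, KRT18 and KRT8 hold nearly all of the level. The others had few reads. CLDN3 had 19 and 18 in CBL0137 cells, against 10 and 4 in DMSO cells. RAB25 had 10 and 16 in CBL0137 cells, against 3 and 3 in DMSO cells. The 12 neuronal markers summed to 274 and 280 CPM in CBL0137 cells, against 309 and 308 CPM in DMSO cells, with 1 of 8 tested genes called (INA, higher) and with ELAVL4 and DCX at 0 reads. That sum is mostly SYT1, at 171 and 176 CPM in CBL0137 cells, against 233 and 230 CPM in DMSO cells, while at an adjusted p under 0.05 with no fold limit 5 neuronal genes were higher and 1 lower, with a median log2 fold change of 0.33. Blood markers summed to 7.81 and 7.51 CPM in CBL0137 cells, against 5.34 and 4.89 CPM in DMSO cells, with 1 of 3 tested genes called (ITGAM, higher) and with CD3E and HBB at 0 reads. Endothelial markers summed to 6.24 and 7.77 CPM in CBL0137 cells, against 6.0 and 5.82 CPM in DMSO cells, with 1 of 2 tested genes called (CDH5, higher). Over all genes tested, edgeR called 6.88% higher and 2.73% lower. At an adjusted p under 0.05 with no fold limit, 17.5% were higher and 19.0% lower. The part of the marker levels in the values below was not tested.

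Protocadherin RNA was mostly at a low level in A673, and its changes with CBL0137 were about as large as those of all genes tested. The median absolute log2 fold change was 0.213 over the tested protocadherins, against 0.217 over all genes tested. The median level of the tested protocadherins was 4.21 CPM, against 16.7 CPM over all genes tested. The level of a gene is given as CPM after TMM scaling of the libraries, with fold changes as log2 of CBL0137 over DMSO ± SE from edgeR's quasi-likelihood test, and a gene is called when its Benjamini-Hochberg adjusted p is under 0.05 together with a fold above 1.5. The 66 genes summed to 1003 and 1028 CPM in CBL0137 cells, against 956 and 934 CPM in DMSO cells. Of the 62 that passed the count filter, 4 were called higher and 1 lower, which is 8.06% of them. Over all 17309 genes tested, 9.61% were called, 6.88% higher and 2.73% lower, so the protocadherins' share lay near the background. At an adjusted p under 0.05 with no fold limit, 9 protocadherins were higher and 3 lower, 19.4% of those tested, against 36.5% of all genes tested. Among genes with a mean under 5 CPM these shares were 13.9% and 16.7%, and among the others 26.9% and 46.9%. Both CBL0137 libraries were above both DMSO libraries in 25 of the 62 and below them in 13, while such a separation, in either direction, held for 66.9% of all genes tested. In bulk RNA, fewer cells with a transcript and less of it per cell cannot be told apart. The median log2 fold change was 0.16 over the 51 tested clustered genes and 0.06 over the 11 tested non-clustered genes, against 0.003 over all genes tested and 0.16 over all genes tested with a mean under 5 CPM, a level that also holds most clustered genes (median 3.57 CPM). Without CBL0137 replicate 1 the clustered median was 0.0801. The 5 calls were PCDHGA5, PCDHA9, PCDHA4 and PCDHGA4, higher, and PCDHA5, lower. All lay at a mean under 5 CPM, a split of the genes by level that was chosen after the data were seen. Of the 36 protocadherins under that level 13.9% were called, against 15.8% of all genes there, and of the 26 at or above it edgeR called none, with 9 at an unadjusted p under 0.05, while it called 6.37% of all genes at that level. DESeq2 gave an adjusted p to 58 of the 62 protocadherins and called 0 of them, with 7 at an unadjusted p under 0.05, while it called 7.04% of all genes to which it gave an adjusted p, and limma-voom called the same 5 as edgeR. The counts of calls rested on single libraries. Without DMSO replicate 2, 1 protocadherin was called higher and 0 lower by edgeR, the one being PCDHGB6 (1.09, adjusted p = 0.00541), and without CBL0137 replicate 2, 2 were called higher and 2 lower. Without CBL0137 replicate 1, 4 were called higher and 2 lower, and without DMSO replicate 1, 3 higher and 0 lower.

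**Figure D1:**
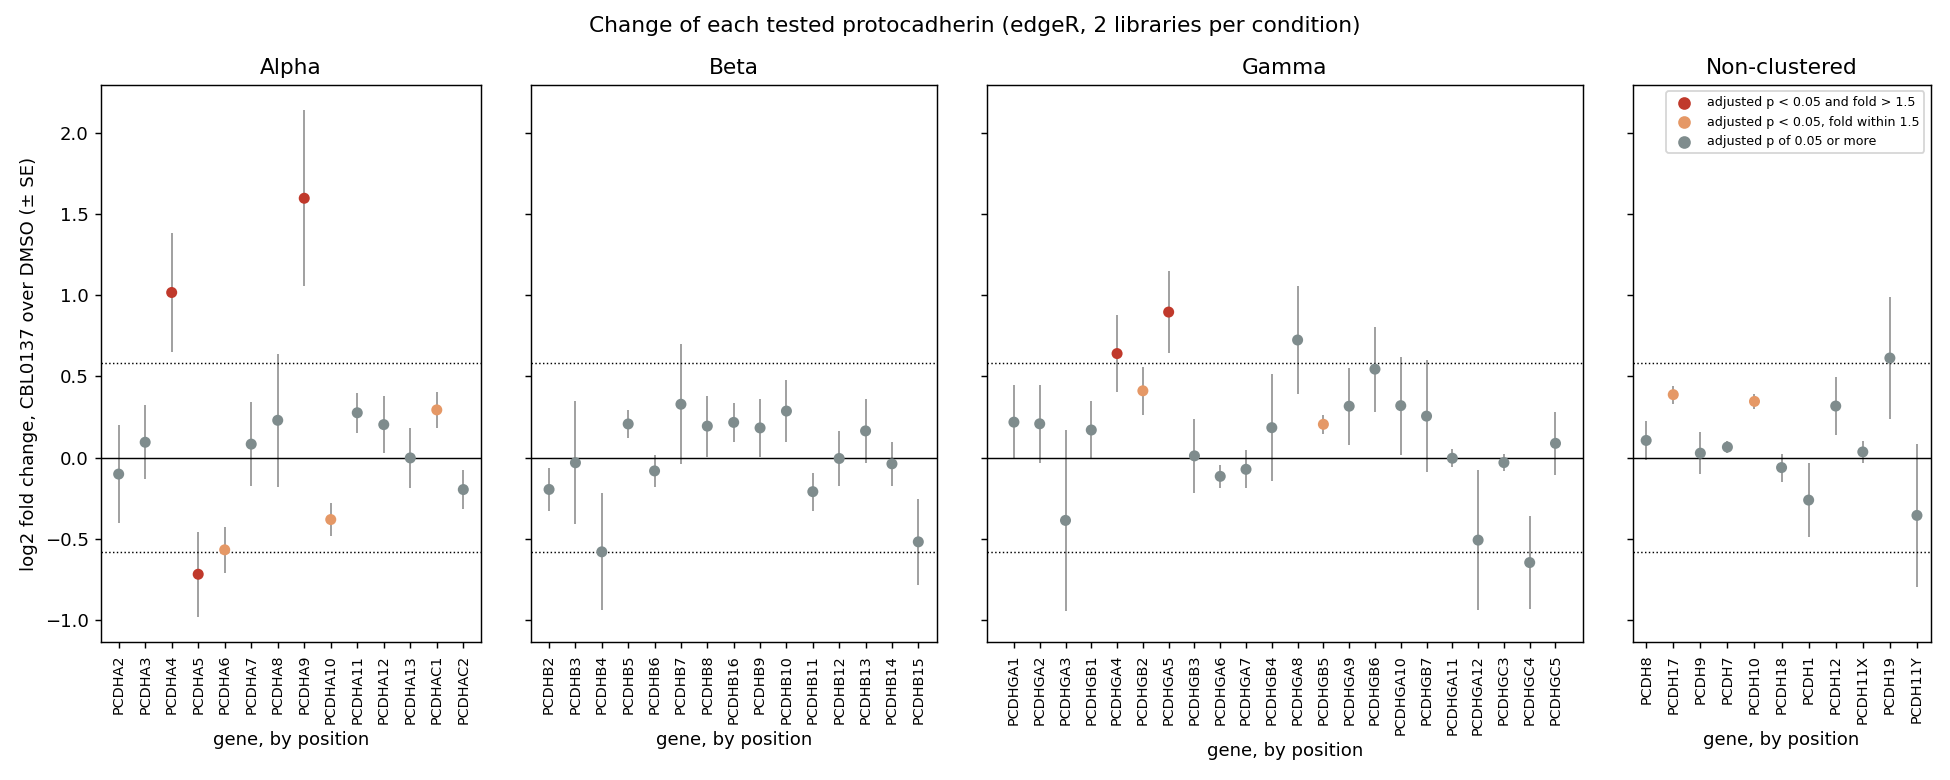
Log2 fold change of CBL0137 over DMSO (vertical axis) for the 62 tested protocadherins in order of position within each class (horizontal axis), with bars of ± SE from edgeR over 2 libraries per condition and dotted lines at a fold of 1.5. The 5 called genes lie in the alpha and gamma panels, while no beta gene reaches an adjusted p under 0.05.

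The gamma cluster (chr5:140710081-140892544, GRCh37, forward strand) had the most reads of the 3 and was led by PCDHGC3, PCDHGB5 and PCDHGA11 in all 4 libraries. Its summed level was 294 and 311 CPM in CBL0137 cells, against 294 and 285 CPM in DMSO cells. These genes together held 69.4% and 68.7% of the cluster's assigned reads in CBL0137 cells, against 69.4% and 69.6% in DMSO cells. The same 3 of 22 genes thus supplied most gamma reads under both conditions. PCDHGC3, a C-type gene, had 71.4 and 75.1 CPM in CBL0137 cells, against 74.1 and 75.7 CPM in DMSO cells. The 2 conditions overlapped, with a log2 fold change of -0.03 ± 0.05 (adjusted p = 0.687, edgeR) whose sign turns with upper-quartile scaling (0.02). PCDHGA11 had 65.5 and 64.4 CPM in CBL0137 cells, against 67.3 and 62.9 CPM in DMSO cells, also overlapping, at -0.004 ± 0.06 (adjusted p = 0.966, edgeR), a sign that turns with upper-quartile scaling as well (0.04). PCDHGB5 had 67.1 and 74.3 CPM in CBL0137 cells, against 62.7 and 60.1 CPM in DMSO cells. Both CBL0137 libraries were above both DMSO libraries, at 0.20 ± 0.06 (adjusted p = 0.00671, edgeR), a fold of 1.15 and so within the limit. PCDHGA6, the fourth most abundant gamma gene by reads and chosen for naming after its values were seen, had 31.0 and 34.4 CPM in CBL0137 cells, against 36.5 and 34.5 CPM in DMSO cells (-0.12 ± 0.07, adjusted p = 0.229, edgeR).

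Per kilobase of exon that no other gene covers in the annotation, PCDHGB5 averaged 26.1 CPM per kb in CBL0137 cells and 22.7 CPM per kb in DMSO cells. PCDHGC3 averaged 22.5 CPM per kb in CBL0137 cells and 23.0 CPM per kb in DMSO cells, and PCDHGA11 17.9 CPM per kb in both. The next gamma gene on this scale, PCDHGA6, had 5.68 CPM per kb in CBL0137 cells and 6.16 CPM per kb in DMSO cells. These levels put the 3 leading gamma genes beside PCDH7, the leading non-clustered gene, at 20.4 CPM per kb in CBL0137 cells and 19.5 CPM per kb in DMSO cells.

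**Figure D2:**
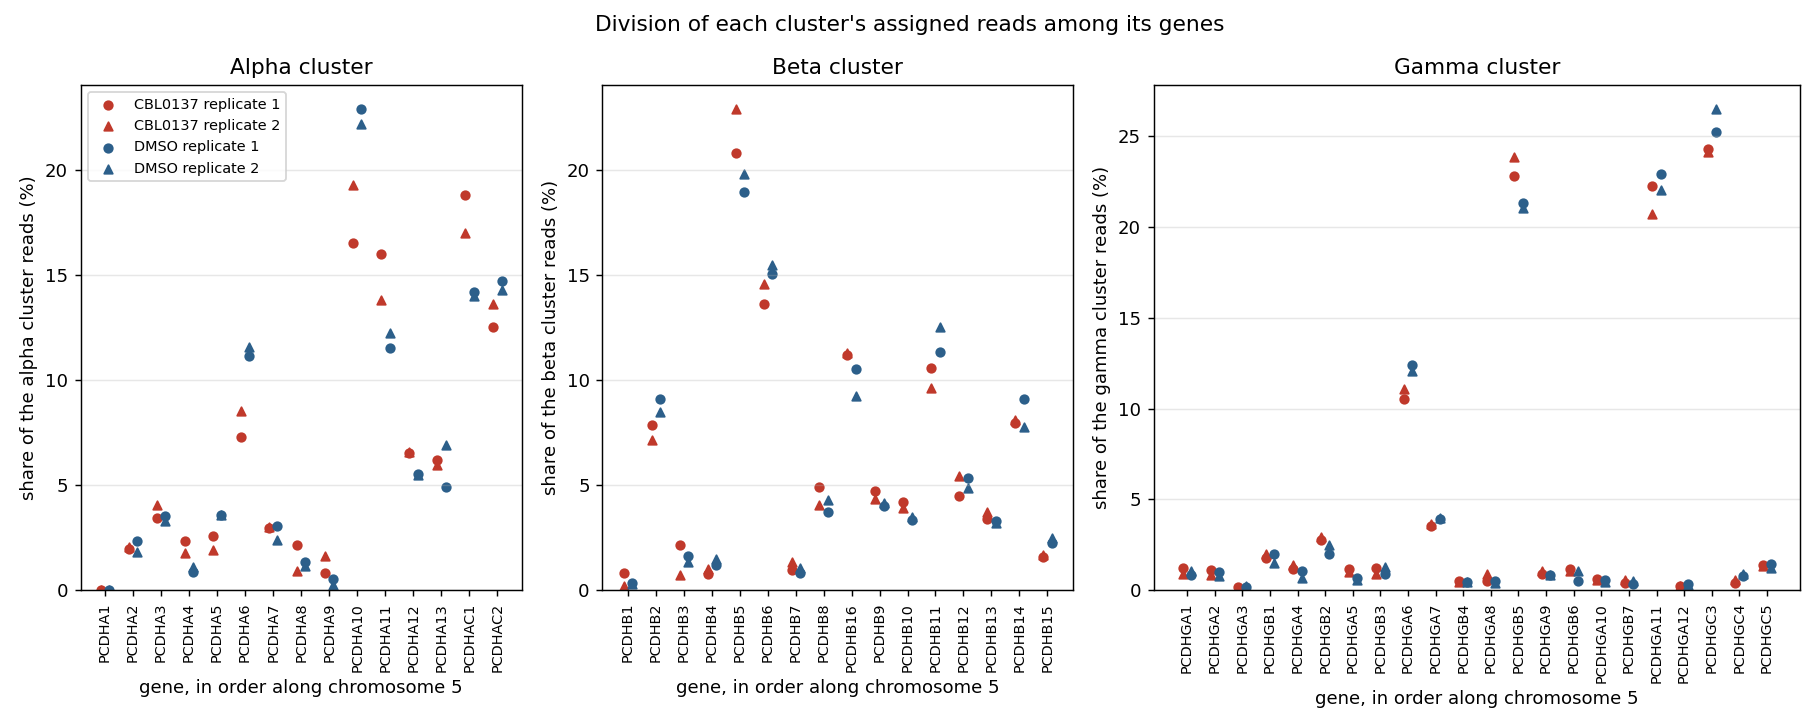
Share of each cluster's assigned reads (vertical axis, percent) held by each of its genes in order along chromosome 5 (horizontal axis), one point per library. In the gamma panel PCDHGB5, PCDHGA11 and PCDHGC3 each hold more than 20% in every library, while alpha and beta reads are spread over more genes.

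Of the 22 gamma genes, 2 were called higher, none lower and 20 not called. The called share was 9.09%, near the 9.61% of all genes tested. Both calls were weakly expressed A-type genes, whose products carry the extracellular repeats that sort cells by like binding. PCDHGA5 had 72 and 73 reads in CBL0137 cells, against 46 and 34 reads in DMSO cells. Its level was 3.29 ± 0.20 CPM in CBL0137 cells and 1.76 ± 0.36 CPM in DMSO cells (SD, n = 2 each), with both CBL0137 libraries above both DMSO libraries. It rose by 0.90 ± 0.25 on the log2 scale (adjusted p = 0.00645, edgeR). The call ended without DMSO replicate 2 (0.70, adjusted p = 0.0772, edgeR) and with DESeq2 (0.90, adjusted p = 0.0508). PCDHGA4 had 3.38 and 4.36 CPM in CBL0137 cells, against 3.06 and 1.91 CPM in DMSO cells. The CBL0137 libraries lay above, by little over DMSO replicate 1, and the gene rose by 0.64 ± 0.24 (adjusted p = 0.0367, edgeR). This call ended without CBL0137 replicate 2 (0.44, adjusted p = 0.254, edgeR), without DMSO replicate 2 (0.33, adjusted p = 0.387, edgeR) and with DESeq2 (adjusted p = 0.164). PCDHGB2, named after its values were seen, was the other gamma gene at an adjusted p under 0.05, with 8.05 and 9.11 CPM in CBL0137 cells, against 5.78 and 7.15 CPM in DMSO cells (0.41 ± 0.15, adjusted p = 0.0305, edgeR), within the fold limit.

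PCDHGC4, a C-type gene required for survival of inhibitory neurons in mice, had 25 and 41 reads in CBL0137 cells, against 51 and 55 reads in DMSO cells. Both CBL0137 libraries were below, but the log2 fold change of -0.65 ± 0.29 missed the threshold (adjusted p = 0.0798, edgeR), and it passed without CBL0137 replicate 2 (-0.97, adjusted p = 0.0394, edgeR). PCDHGC5, the last gene of the cluster, had 4.0 and 4.14 CPM in CBL0137 cells, against 4.20 and 3.46 CPM in DMSO cells (0.09 ± 0.19, adjusted p = 0.767, edgeR), and the conditions overlapped. The C-type gamma genes spanned a wide range of levels, with PCDHGC3 at 73.3 ± 2.65 CPM and PCDHGC4 at 1.48 ± 0.41 CPM in CBL0137 cells (SD, n = 2 each). PCDHGA3 was the gamma gene with the fewest reads, 11 and 6 in CBL0137 cells, against 10 and 13 in DMSO cells, and it was the tested protocadherin nearest to the count filter. Its log2 fold change was -0.39 ± 0.56 (adjusted p = 0.632, edgeR).

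The alpha cluster (chr5:140165721-140391932, GRCh37, forward strand) had 2 genes called higher and 1 lower of 14 tested, with 11 not called. That is 21.4% of them, against 9.61% of all genes tested. The 3 called genes lay under 5 CPM, where 15.8% of all genes were called. That share covers genes under 5 CPM alone, while the 21.4% covers alpha genes of every level, so these shares are not alike. The alpha cluster's summed level was nearly even, at 77.7 and 76.7 CPM in CBL0137 cells, against 81.1 and 78.7 CPM in DMSO cells. PCDHA4, PCDHA5 and PCDHA6 stand next to one another, and differed in direction. Their promoters are shown because they share the 10-base word that is most frequent among alpha promoters. In the RefSeq promoter table (GRCh38.p14, from 250 bases before to 50 bases after a gene's start), which holds 58 of the 66 genes, the word in capitals below was in 8 of 13 alpha genes, in none of the beta, gamma and non-clustered genes in the table, and in 0.0342% of 35116 promoters, read on both strands. The 40-base windows, from the forward strand, end the word 34 to 77 bases before the annotated start in the 8 alpha genes. They lie at chr5:140806974-140807013 for PCDHA4, chr5:140821537-140821576 for PCDHA5 and chr5:140827892-140827931 for PCDHA6.
PCDHA4: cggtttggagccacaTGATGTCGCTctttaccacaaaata
PCDHA5: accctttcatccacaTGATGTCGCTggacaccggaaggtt
PCDHA6: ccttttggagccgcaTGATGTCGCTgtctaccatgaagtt
PCDHA4 and PCDHA6 differ at 9 of these 40 bases, PCDHA4 and PCDHA5 at 16, and PCDHA5 and PCDHA6 at 14. The median over 28 alpha pairs was 13.5. Windows were aligned at the word, so its 10 bases cannot differ. The core CGCT of the word is the centre of the conserved element of clustered protocadherin promoters, which CTCF is known to bind, but these 4 letters occur in 70.0% of all promoters in the table.

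PCDHA4 had 38 and 31 reads in CBL0137 cells, against 16 and 19 reads in DMSO cells. Its level was 1.57 ± 0.33 CPM in CBL0137 cells and 0.77 ± 0.10 CPM in DMSO cells (SD, n = 2 each), without overlap, and it rose by 1.02 ± 0.37 (adjusted p = 0.0326, edgeR). The call ended without CBL0137 replicate 1 (0.79, adjusted p = 0.232, edgeR), without DMSO replicate 1 (0.88, adjusted p = 0.165, edgeR), without DMSO replicate 2 (1.15, adjusted p = 0.0746, edgeR) and with DESeq2 (adjusted p = 0.151). PCDHA5 had 42 and 34 reads in CBL0137 cells, against 66 and 63 reads in DMSO cells. Both CBL0137 libraries were below both DMSO libraries, and the gene fell by 0.72 ± 0.26 on the log2 scale (adjusted p = 0.0332, edgeR). That call ended without CBL0137 replicate 2 (-0.51, adjusted p = 0.232, edgeR), without DMSO replicate 1 (-0.70, adjusted p = 0.106, edgeR), without DMSO replicate 2 (-0.75, adjusted p = 0.0812, edgeR) and with DESeq2 (adjusted p = 0.16). PCDHA6, named after its values were seen, had 5.67 and 6.52 CPM in CBL0137 cells, against 9.02 and 9.10 CPM in DMSO cells. It was lower at -0.57 ± 0.14 (adjusted p = 0.00244, edgeR), just within the fold limit, and passed it without CBL0137 replicate 2 (-0.68, adjusted p = 0.0012, edgeR).

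PCDHA9 had the largest log2 fold change among the tested protocadherins on few reads, 13 and 29 in CBL0137 cells, against 10 and 4 in DMSO cells. It rose by 1.6 ± 0.54 (adjusted p = 0.0225, edgeR), with CBL0137 replicate 1 (0.619 CPM) not far above DMSO replicate 1 (0.438 CPM). The call ended without CBL0137 replicate 2 (0.99, adjusted p = 0.381, edgeR) and without DMSO replicate 2 (1.09, adjusted p = 0.237, edgeR), and DESeq2 gave no adjusted p at this depth. Among the more abundant alpha genes, PCDHA10 had 12.8 and 14.8 CPM in CBL0137 cells, against 18.6 and 17.5 CPM in DMSO cells. It was lower in both libraries, at -0.38 ± 0.10 (adjusted p = 0.00467, edgeR), within the fold limit. PCDHAC1, a C-type gene, had 14.6 and 13 CPM in CBL0137 cells, against 11.5 and 11 CPM in DMSO cells. It was higher in both, at 0.29 ± 0.11 (adjusted p = 0.0414, edgeR), also within the limit. PCDHAC2, the other alpha C-type gene, had 9.71 and 10.4 CPM in CBL0137 cells, against 11.9 and 11.2 CPM in DMSO cells (-0.20 ± 0.12, adjusted p = 0.204, edgeR). PCDHA10, PCDHAC1 and PCDHAC2 were the 3 alpha genes with the most reads, and together held 47.8% and 49.9% of the cluster's reads in CBL0137 cells, against 51.8% and 50.4% in DMSO cells. The promoter word was in none of PCDHA9, PCDHA10, PCDHAC1 and PCDHAC2.

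**Figure D3:**
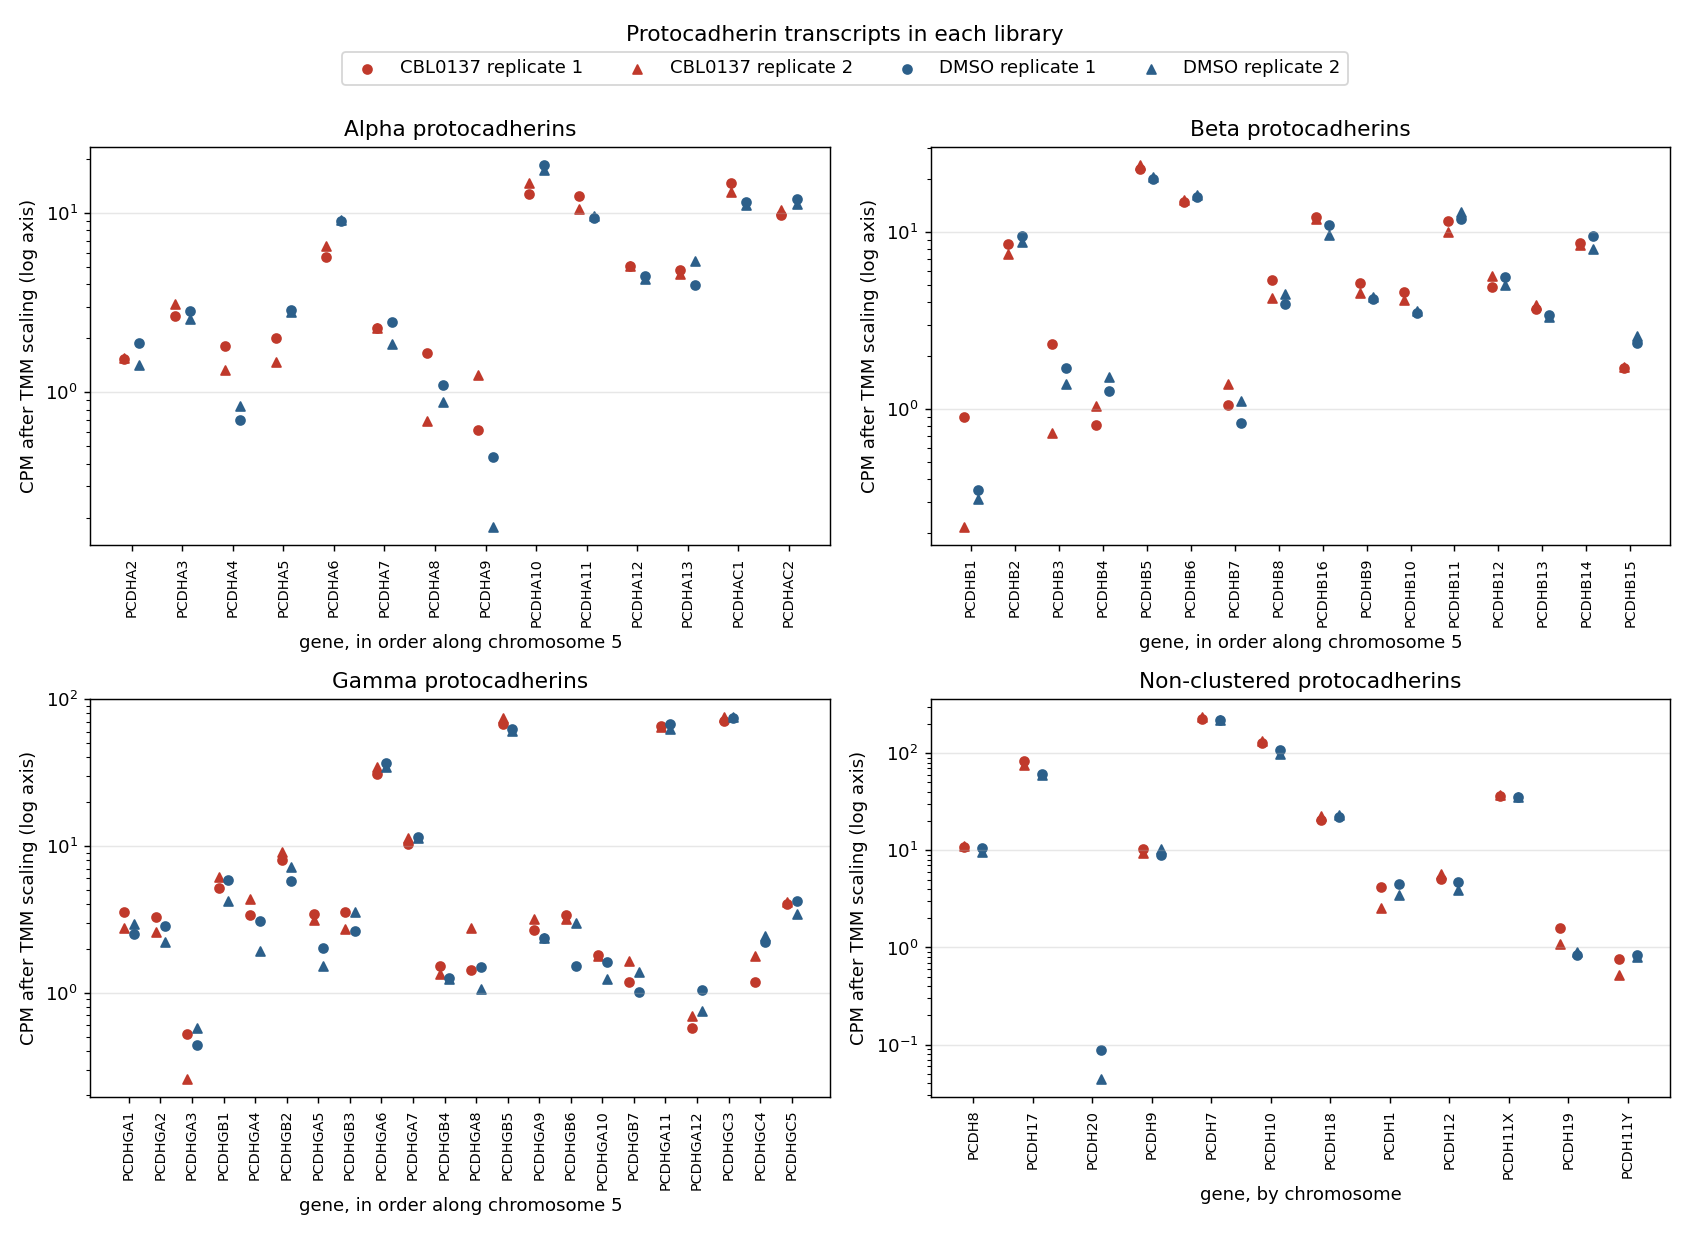
Level of each protocadherin in each library (vertical log axis, CPM after TMM scaling) by class and position (horizontal axis), with 1 point per library. Libraries with 0 reads have no point, which leaves out PCDHA1 and PCDH15. The most abundant genes, such as PCDHGC3 and PCDH7, show nearly coincident points, and the spread widens among genes near 1 CPM.

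No beta gene was called in either direction by edgeR, DESeq2 or limma-voom, while edgeR called 9.61% of all genes tested. At an unadjusted p under 0.05 there was 1 of the 15 tested by edgeR, 0 by DESeq2 and 1 by limma-voom. The cluster (chr5:140430959-140628933, GRCh37, forward strand) summed to 109 and 104 CPM in CBL0137 cells, against 105 and 104 CPM in DMSO cells, and its median log2 fold change was -0.01. PCDHB5, its most abundant gene, had 22.6 and 24.0 CPM in CBL0137 cells, against 19.8 and 20.6 CPM in DMSO cells. Both CBL0137 libraries were above, at 0.21 ± 0.09, which missed the threshold (adjusted p = 0.0621, edgeR). PCDHB6 had 14.8 and 15.2 CPM in CBL0137 cells, against 15.8 and 16.1 CPM in DMSO cells (-0.08 ± 0.10, adjusted p = 0.557, edgeR). PCDHB11 had 11.5 and 10.1 CPM in CBL0137 cells, against 11.9 and 13 CPM in DMSO cells (-0.21 ± 0.12, adjusted p = 0.171, edgeR). The log2 fold changes of the 15 ran from -0.58 to 0.33.

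Beta and gamma promoters each had a shared word of their own around the same CGCT core, shown to set promoter likeness beside level. The beta word GGTGGCGCTG was in 12 of 14 beta genes in the table and in 0.276% of all promoters. The gamma word GCGCCGCTGT was in 9 of 20 gamma genes and in 0.131% of all promoters. Windows of PCDHB5 (chr5:141135175-141135214), PCDHB8 (chr5:141177773-141177812), PCDHB13 (chr5:141213861-141213900), PCDHGB4 (chr5:141387614-141387653) and PCDHGB5 (chr5:141397860-141397899), in GRCh38.p14 on the forward strand, read as follows, with the word in capitals.
PCDHB5: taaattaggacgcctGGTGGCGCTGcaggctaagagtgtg
PCDHB8: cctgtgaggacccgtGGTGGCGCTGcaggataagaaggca
PCDHB13: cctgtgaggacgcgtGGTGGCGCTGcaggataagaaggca
PCDHGB4: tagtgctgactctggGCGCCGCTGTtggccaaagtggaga
PCDHGB5: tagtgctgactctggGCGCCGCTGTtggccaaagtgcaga
PCDHGB4 and PCDHGB5 differ at 1 of the 40 bases, the fewest of 36 gamma pairs, whose median was 14. Yet PCDHGB4 had 0.58 CPM per kb of own exon in CBL0137 cells and 0.51 CPM per kb in DMSO cells, far below PCDHGB5 at 26.1 CPM per kb in CBL0137 cells and 22.7 CPM per kb in DMSO cells. PCDHB8 and PCDHB13 also differ at 1 base. PCDHB8 had 1.89 CPM per kb in CBL0137 cells and 1.65 CPM per kb in DMSO cells, and PCDHB13 had 0.75 CPM per kb in CBL0137 cells and 0.67 CPM per kb in DMSO cells. PCDHB8, PCDHB13 and PCDHGB4 were named after their values were seen. The GC box GGGCGG was in 1 of 13 alpha, 0 of 14 beta, 1 of 20 gamma and 6 of 11 non-clustered genes, and in 45.0% of all promoters. TATAAA was in 3 alpha, 1 beta, 2 gamma and 3 non-clustered genes, and in 11.5% of all promoters. Every word was read on both strands, and each class word holds the CGCT core.

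The non-clustered genes carried about as many assigned reads as all 3 clusters together and included the 2 protocadherins with the smallest adjusted p. Their summed level was 522 and 536 CPM in CBL0137 cells, against 476 and 466 CPM in DMSO cells, a ratio of 1.12, while the 53 clustered genes gave 480 and 492 CPM in CBL0137 cells, against 479 and 468 CPM in DMSO cells, a ratio of 1.03. Exons of other genes leave a median of 48.2% of alpha and 56.2% of gamma exonic bases to a gene alone, against 100% in non-clustered genes. The part of this in the cluster totals was not tested. While edgeR called 9.61% of all genes tested, none of the 11 tested non-clustered genes was called with edgeR, DESeq2 or limma-voom. At an unadjusted p under 0.05 there were 2 with each tool. These 2 were PCDH10 and PCDH17, delta-group protocadherins that recruit the WAVE complex to cell contacts and are silenced by promoter methylation in several carcinomas. PCDH10 (chromosome 4, GRCh37 134070449 to 134129761, forward strand) had 127 and 134 CPM in CBL0137 cells, against 107 and 98.4 CPM in DMSO cells. Both CBL0137 libraries were above both DMSO libraries, at 0.35 ± 0.05 (adjusted p = 2.87e-06, edgeR), a fold of 1.27. PCDH17 (chromosome 13, GRCh37 58205878 to 58303445, forward strand) had 82.1 and 75.4 CPM in CBL0137 cells, against 60.5 and 59.8 CPM in DMSO cells. It was higher in both libraries, at 0.39 ± 0.06 (adjusted p = 4.08e-06, edgeR), a fold of 1.31. Both folds lay within the limit of 1.5.

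PCDH7 (chromosome 4, GRCh37 30721991 to 31148427, forward strand), a delta-group gene whose product binds the phosphatase regulator SET in lung cancer cells, was the most abundant protocadherin. It had 223 and 237 CPM in CBL0137 cells, against 221 and 219 CPM in DMSO cells, with both CBL0137 libraries above. The log2 fold change of 0.06 ± 0.04 missed the threshold (adjusted p = 0.211, edgeR). PCDH11X had 35.9 and 37 CPM in CBL0137 cells, against 35.4 and 35.8 CPM in DMSO cells (0.03 ± 0.07, adjusted p = 0.733, edgeR). PCDH11Y, its near-identical partner on the Y chromosome, was among the genes just inside the count filter, with 16 and 12 reads in CBL0137 cells, against 19 and 18 reads in DMSO cells. Reads of this pair may be split between the genes, so the assignment is uncertain. PCDH18 had 20.7 and 22.5 CPM in CBL0137 cells, against 22.1 and 23.0 CPM in DMSO cells (-0.06 ± 0.09, adjusted p = 0.621, edgeR). PCDH19, the gene of an epilepsy syndrome, had 33 and 25 reads in CBL0137 cells, against 19 and 20 reads in DMSO cells (0.61 ± 0.38, adjusted p = 0.214, edgeR). PCDH1, an airway epithelial protocadherin, had 4.19 and 2.55 CPM in CBL0137 cells, against 4.51 and 3.51 CPM in DMSO cells, and it passed as lower without CBL0137 replicate 1 (-0.66, adjusted p = 0.0412, edgeR). These genes other than PCDH7 and PCDH11Y were named after their values were seen.

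The 4 protocadherins that did not pass the count filter were PCDHA1, PCDHB1, PCDH15 and PCDH20. PCDHB1, just outside the filter, had 19 and 5 reads in CBL0137 cells, against 8 and 7 reads in DMSO cells. PCDH20 had 0 and 0 reads in CBL0137 cells, against 2 and 1 reads in DMSO cells, but 446 of its 5105 exonic bases are its own, and its FPKM ran the other way, at 0.58 and 0.511 in CBL0137 cells, against 0.228 and 0.284 in DMSO cells. PCDH15, whose product forms the tip link of inner ear hair cells, had 0 reads in all 4 libraries. PCDHA1 also had 0 reads in all 4, but 7 of its 5595 exonic bases are free of other genes' exons in the annotation, when genes on either strand are counted. Its absence from the counts is therefore no measure of its expression.

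The deposited FPKM values gave a different account of the alpha and gamma genes. How reads on exons shared between genes entered the FPKM is not stated in the labels, and its part in the values below was not tested. Within the gamma cluster, where constant exons leave a median of 56.2% of a gene's exonic bases to itself, the 22 genes ranged from 6 to 1740 reads per library, while their FPKM ranged from 19.9 to 51.9. PCDHGA3, at 11 and 6 reads in CBL0137 cells and 10 and 13 reads in DMSO cells, was listed at 35.0 and 37.4 FPKM in CBL0137 cells, against 36.4 and 35.4 FPKM in DMSO cells. PCDHGC3, with 1499 to 1740 reads per library, was listed at 35.1 and 38.3 FPKM in CBL0137 cells, against 37.3 and 35.2 FPKM in DMSO cells. The ratio of mean FPKM, CBL0137 over DMSO, lay between 0.985 (PCDHGA6) and 1.06 (PCDHGB5) for every gamma gene. PCDHGA5, called higher by counts, had 30.2 and 32.3 FPKM in CBL0137 cells, against 31.3 and 30.3 FPKM in DMSO cells. For every alpha gene that ratio lay between 0.674 (PCDHA10) and 0.967 (PCDHA2). By counts, 8 of the 14 tested alpha genes had a log2 fold change above 0 and 6 below. PCDHA4, also called higher by counts, had 1.53 and 1.46 FPKM in CBL0137 cells, against 1.61 and 1.80 FPKM in DMSO cells. PCDHA9, likewise called higher by counts, had 1.99 and 1.99 FPKM in CBL0137 cells, against 2.16 and 2.23 FPKM in DMSO cells. In beta genes, which share little exon (a median of 94.7% is their own), the 2 columns mostly gave closer values, as for PCDHB5 with 5.96 and 6.76 FPKM in CBL0137 cells, against 5.16 and 5.38 FPKM in DMSO cells. PCDHB16, named after its values were seen, differed more. Its log2 ratio of mean FPKM was 0.58, beside a log2 fold change of 0.22 from counts.

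PCDH7 also differed between the 2 columns, although most of its exon is its own. Its FPKM was 19.8 and 28.3 in CBL0137 cells, against 10.5 and 12.9 in DMSO cells, a ratio of 2.06, while its reads numbered 4692 and 5486 in CBL0137 cells, against 5046 and 4942 in DMSO cells. With limma-trend on log2(FPKM + 1), a scale that understates the change of low genes, it was higher by 0.97 (adjusted p = 0.0445), a call that ended with no filter on low FPKM (adjusted p = 0.206). PCDH11X likewise had 3.30 and 3.47 FPKM in CBL0137 cells, against 2.27 and 2.26 FPKM in DMSO cells, a ratio of 1.49 beside nearly equal counts. PCDH10 and PCDH17 moved the same way in both columns, with PCDH10 at 9.97 and 10.2 FPKM in CBL0137 cells, against 7.90 and 7.15 FPKM in DMSO cells. PCDH17 was at 7.72 and 7.41 FPKM in CBL0137 cells, against 6.11 and 5.61 FPKM in DMSO cells.

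**Figure D4:**
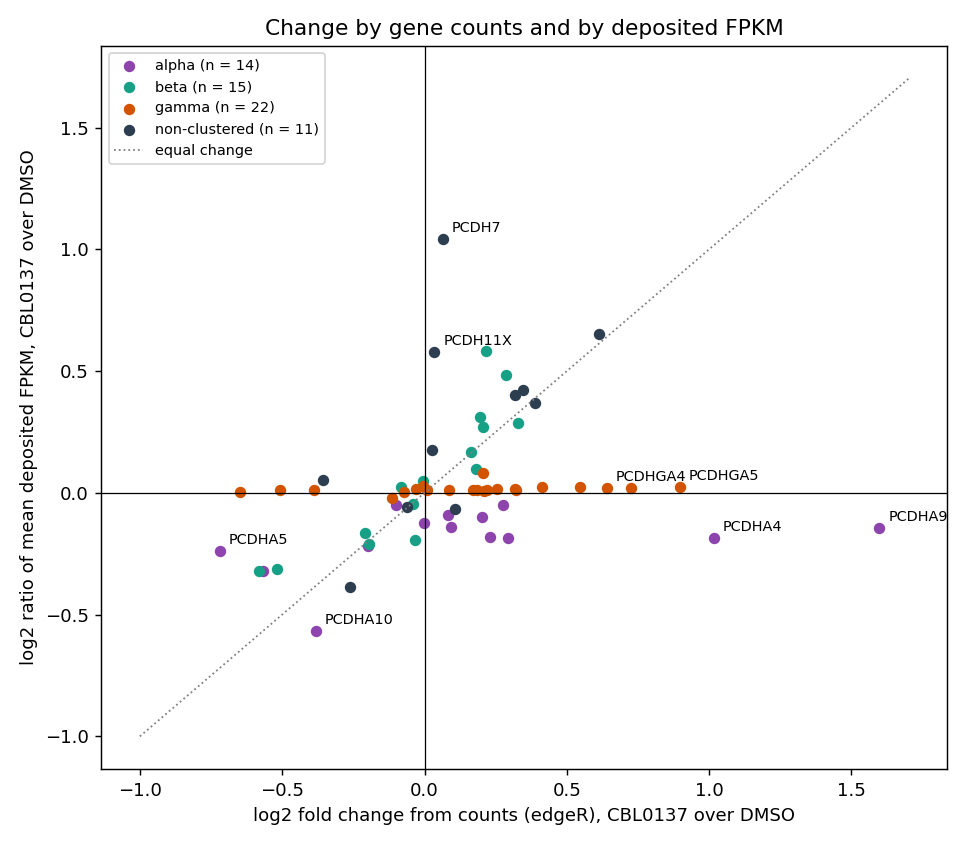
Log2 fold change from counts (horizontal axis, edgeR, CBL0137 over DMSO) against the log2 ratio of mean deposited FPKM (vertical axis, CBL0137 over DMSO), one point for each of the 62 tested protocadherins. Gamma genes form a flat row near an FPKM ratio of 1, and PCDH7 stands at a ratio of 2.06 with a count change of 0.06.

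The genes that act on or with protocadherins moved mostly in small steps. While edgeR called 9.61% of all genes tested, 1 of 14 genes of CTCF and cohesin was called lower and none higher. This was CDCA5 (sororin), which holds cohesin on replicated chromosomes, with 110 and 106 CPM in CBL0137 cells, against 164 and 163 CPM in DMSO cells (-0.60 ± 0.04, adjusted p = 2.97e-11, edgeR). At an adjusted p under 0.05 with no fold limit, 7 of the 14 were lower and 1 higher, against 19.0% lower and 17.5% higher over all genes tested. The cohesin subunit RAD21 had 266 and 261 CPM in CBL0137 cells, against 346 and 372 CPM in DMSO cells (-0.45 ± 0.04, adjusted p = 8.91e-10, edgeR), and SMC1A had 409 and 417 CPM in CBL0137 cells, against 538 and 533 CPM in DMSO cells (-0.37 ± 0.03, adjusted p = 1.78e-09, edgeR). The list's median log2 fold change was -0.15. Of 16 genes of cluster silencing and DNA methylation, none was called by edgeR, DESeq2 or limma-voom, while 11, 10 and 11 had an unadjusted p under 0.05 with these tools, as did 7757 of all 17309 genes with edgeR. At an adjusted p under 0.05 with no fold limit, 8 were lower and 2 higher, against 19.0% lower and 17.5% higher over all genes tested. At a mean of 5 CPM or more, a level that holds all 16, the limit was passed by 46.9% of all genes in either direction. The maintenance methyltransferase DNMT1 (-0.28 ± 0.03), the demethylating enzyme TET1 (-0.45 ± 0.07) and the corepressor TRIM28 (-0.30 ± 0.03) had the smallest adjusted p. The median over the 16 was -0.09, against 0.003 over all genes tested.

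Of 20 cytoplasmic partners, 1 was called higher and none lower, namely RET, a receptor kinase that phosphorylates alpha and gamma protocadherins, with 155 and 158 CPM in CBL0137 cells, against 105 and 101 CPM in DMSO cells (0.60 ± 0.04, adjusted p = 4.54e-11, edgeR). Over all genes tested edgeR called 9.61%. With no fold limit, 6 partners were higher and 1 lower at an adjusted p under 0.05, against 17.5% higher and 19.0% lower over all genes tested. The adaptor DAB1 was higher by 0.20 ± 0.04, within the fold limit. Of the 10 other large cadherins, none was called by edgeR, DESeq2 or limma-voom. With each tool 5 had an unadjusted p under 0.05. Those 5 were also higher at an adjusted p under 0.05 by edgeR, as were 17.5% of all genes tested. FAT4, a planar polarity cadherin, had 191 and 187 CPM in CBL0137 cells, against 130 and 132 CPM in DMSO cells (0.53 ± 0.04), its ligand DCHS1 was higher by 0.30 ± 0.05 and CELSR2 by 0.27 ± 0.04, and the list's median was 0.28. Of 20 classical and type II cadherins, 10 passed the filter, and 1 was called higher, the endothelial CDH5 with 19 and 17 reads in CBL0137 cells, against 4 and 3 reads in DMSO cells. DESeq2 called none of this list, with 6 at an unadjusted p under 0.05, and limma-voom called 1. By edgeR 3 of the list were higher and 3 lower at an adjusted p under 0.05 with no fold limit. Over all genes tested, 17.5% were higher and 19.0% lower at this limit. CDH4 (-0.51 ± 0.07), CDH12 (-0.26 ± 0.05) and CDH24 (0.27 ± 0.05) had the smallest adjusted p and lay within the fold limit.

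Of 29 protein-coding neighbours within 500 kb on chromosome 5, protocadherins aside, 24 passed the filter. None was called by edgeR, DESeq2 or limma-voom, while edgeR called 9.61% of all genes tested. With these tools 14, 10 and 13 had an unadjusted p under 0.05, as did 7757 of all 17309 genes with edgeR. At an adjusted p under 0.05 with no fold limit, 3 were higher and 7 lower, against 17.5% higher and 19.0% lower over all genes tested. The formin DIAPH1 had 204 and 198 CPM in CBL0137 cells, against 234 and 246 CPM in DMSO cells (-0.26 ± 0.04). The histidyl-tRNA synthetase gene HARS1 had 123 and 132 CPM in CBL0137 cells, against 106 and 102 CPM in DMSO cells (0.29 ± 0.05). ARAP3, a GTPase regulator, had 51.8 and 49.8 CPM in CBL0137 cells, against 38.8 and 39.9 CPM in DMSO cells (0.37 ± 0.06). The neighbours' median log2 fold change was 0.07, against 0.003 over all genes tested.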

How the data were processed

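RNA-seq of A673 cells gave 4 libraries, 2 of CBL0137 and 2 of DMSO, grouped by sample title. The authors deposited whole-number counts per gene, and the submitters' processing notes name Trim Galore, HISAT2, HTSeq 0.11.1 and DESeq2 1.26.0, and the builds hg19 (GRCh37) and mm10 (mouse), with no role for each. For these human libraries hg19 was assumed. The authors also deposited FPKM per gene, which per the labels is scaled by gene length and depth. The labels state neither the annotation, nor the rule for reads on several genes, nor the use of strand, so antisense and overlapping genes may not be told apart.

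Of 60623 rows, 60617 name a gene. The other 6 hold summary rows and a leftover header, and the summary rows took 23.7% to 24.8% of reads per library, with ambiguous reads at 9.19% to 9.50%. Both stayed out of library sizes. Symbols and positions came from GENCODE release 44 lifted to GRCh37, which named 58524 identifiers. Exon not covered by another gene was taken from it, on either strand. Promoters and their GRCh38.p14 coordinates came from RefSeq. The shared words are the 10-base words held by most genes of a class, so their counts within that class describe how they were chosen.

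Counts were tested with edgeR 4.0.16 in R 4.3.3 (TMM factors, filterByExpr at a minimum count of 10, quasi-likelihood test, no further term), with Benjamini-Hochberg adjustment over all 17309 genes tested. The SE is the log2 fold change divided by the square root of F. The common biological coefficient of variation was 3.18%, so weakly expressed genes are limited mainly by counting, and 2 libraries per condition limit all tests. The chi-square per degree of freedom between replicates was 2.47 in CBL0137 cells and 2.02 in DMSO cells, against 18.5 between replicate 1 of the conditions. The edgeR test was first run on simulated data, while the DESeq2, limma-voom and limma-trend fits were not. Alternatives were RLE, upper-quartile and library-size scaling, other filters, no fold limit, DESeq2 1.42.0, limma-voom and limma-trend (limma 3.58.1) on log2(FPKM + 1) and log2(FPKM + 0.1), each library left out, and a replicate block.

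The members, lists and alternatives were chosen with earlier results of these data known. Named members are the called ones, the 3 most abundant of each class, the C-type genes, and up to 3 nearest to the count filter on each side, while other lists give called genes and the 3 with the smallest adjusted p. One name of the endothelial list had no matching identifier. A gene that the naming rule takes is not reported here.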

Additional observations from a re-analysis of the deposited data

Results flagged for a closer look

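PCDH7 was flagged because a signal appeared in the deposited FPKM column, outside the counts that the comparisons use. Its mean FPKM was 2.06 times as high in CBL0137 cells, at 19.8 and 28.3, as in DMSO cells, at 10.5 and 12.9, while its level from counts was 223 and 237 CPM in CBL0137 cells and 221 and 219 CPM in DMSO cells. On log2(FPKM + 1), limma-trend gave 0.97 (adjusted p = 0.0445), and on log2(FPKM + 0.1) it gave 1.02 (adjusted p = 0.0452), both after genes of low FPKM were removed. With those genes kept, the call on log2(FPKM + 1) ended (0.97, adjusted p = 0.206). The cause was not tested.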

How the results depend on the processing

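Against 4 protocadherins called higher (2 alpha, 2 gamma, 0 beta, 0 non-clustered) and 1 lower (alpha), RLE, upper-quartile and library-size scaling, no count filter and limma-voom each called the same 5 genes, and library size alone added PCDHGA8 (0.78). The filter of 1 CPM in 2 libraries removed PCDHA9 from testing and left 1 alpha gene higher. DESeq2 called 0 higher and 0 lower in every class. Without a fold limit 9 were higher (4 gamma, 2 non-clustered) and 3 lower, all alpha. On log2(FPKM + 1) and on log2(FPKM + 0.1), 1 was higher, the non-clustered PCDH7, with 0 alpha, 0 gamma and 0 lower, and with no filter on FPKM there were 0 in either direction. Leaving out each library in turn gave 1 to 4 higher (alpha 0 to 1, gamma 1 to 3) and 0 to 2 lower (alpha 0 to 1, gamma 0 to 1, non-clustered 0 to 1); 1 condition then has a lone library, assumed to vary like the other. Same-numbered libraries showed no correlation of deviations (-0.0001), a value that 2 libraries per condition make equal for both pairs. It does not settle whether the libraries were paired. A replicate block left 1 gamma gene higher, losing PCDHGA4 (0.65, adjusted p = 0.0544, edgeR). The clustered median of 0.16 moved to 0.0801 to 0.13 over libraries left out and to 0.0097, 0.00995 and 0.0095 on log2(FPKM + 1), on log2(FPKM + 0.1) and without an FPKM filter. The non-clustered median of 0.06 moved to 0.11 with upper-quartile factors, 0.13 with library size, 0.0517 to 0.10 over libraries left out, and 0.35 and 0.39 on log2(FPKM + 1) and log2(FPKM + 0.1). The median of all genes tested was 0.05 with upper-quartile factors and 0.06 with library size, against 0.003.

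Signs turned as follows, none at an adjusted p under 0.05, and the cause was not tested. On log2(FPKM + 1) with and without its filter, which gave equal values, and on log2(FPKM + 0.1), they turned for PCDHA9 (-0.10 and -0.14), PCDHA4 (-0.11 and -0.17), PCDHAC1 (-0.15 and -0.18), PCDHB6 (0.0201 and 0.0252), PCDHGC3 (0.0165 and 0.0169), PCDHGA11 (0.0279 and 0.0285), PCDHGC4 (0.00101 and 0.00102) and PCDHGA3 (0.0095 and 0.0097). PCDH11Y turned without the filter (0.00776). PCDHGC3 also turned with upper-quartile factors (0.0169) and library size (0.0305), and ran from -0.0712 to 0.00137 over libraries left out. PCDHGA11 turned with upper-quartile factors (0.0439), library size (0.0574) and the 1 CPM filter (0.00787), and ran from -0.0599 to 0.0395 over libraries left out. Without a library PCDHGC5 ran from -0.0524 to 0.23 and PCDHGA3 from -0.96 to 0.0439. Of the single genes' other values, 244 kept direction and side of the threshold, 25 lost the threshold and 3 passed it. Depth limits calls among genes under 5 CPM, which hold all 5.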
